A study of Rattus norvegicus with 16 samples.

Results

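The WNT ligands, receptors and transducers measured here are 54 of the 18166 gene symbols on the array. They were chosen by name. Every gene called Wnt or Fzd with a number was taken, together with Lrp5, Lrp6, Rspo1 to Rspo4, Lgr4 to Lgr6, Axin1, Axin2, Ctnnb1, Lef1, Tcf7, Tcf7l1, Tcf7l2, Dvl1 to Dvl3, Ror1, Ror2, Porcn, Wls, Nkd1, Nkd2 and Rnf43. Fzd3 and Znrf3 belong to the same list but had no probe set paired with them alone, so they have no value here. A probe set is the group of probes that stands for a transcript, and each of the 54 genes had exactly 1. A further probe set named both Lrp5 and Tvp23b and was set aside.

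The tissue was the knee of male Wistar rats. Meniscus was collected together with tibial and femoral articular cartilage, and a little capsule and bone came away with them. Sodium monoiodoacetate (MIA), a glycolysis inhibitor that kills chondrocytes, was injected once at 3 mg into the right knee to induce osteoarthritis-like lesions. Intact rats had no injection and are labelled day 0, and MIA rats were killed at day 2, day 14 or day 28. Each group had 4 Affymetrix Rat Gene 2.0 ST arrays, each made from the pooled RNA of 2 rats, so that n = 4 arrays per group and 16 in all throughout. No saline-injected rats were on the arrays, so MIA, the injection itself and the time elapsed cannot be told apart.

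WNT proteins are secreted, lipid-modified signals that bind Frizzled receptors. With LRP5 or LRP6 as co-receptor they stabilise beta-catenin, which enters the nucleus and acts with the TCF and LEF factors on target genes. With ROR1 or ROR2 they can act without beta-catenin, on cell shape, polarity and calcium. In joints the pathway is known for its part in joint formation, in the upkeep of cartilage and in bone formation. The abundance of beta-catenin is set mainly by destruction of the protein, which an array of transcripts does not measure.

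All values are log2 signals, on which a step of 1 is a doubling, and differences are log2 differences of group means with the standard error of the limma fit. A transcript was called, or is said to have risen or fallen, where the p adjusted over all 36685 probe sets was under 0.05. This refers to the limma fit over all 16 arrays unless another fit is named. Other fits called some of the transcripts that are given here as not called. Of the 54 members, 39 lay above the median of all values on the arrays (6.62) and 15 below it, and 11 of those 15 were ligands. Mean levels over the 16 arrays lay between 5.63 for Wnt8a and 11.06 for Ctnnb1. Signals of different probe sets do not share a scale, so the levels do not rank the genes by abundance. In a tissue made of several cell types, fewer cells of a type and less RNA per cell cannot be told apart.

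Array medians lay between 6.57 and 6.69, and pairs of arrays correlated between 0.959 and 0.992 across probe sets, which are not independent replicates. The label calls the tissue knee cartilage, and chondrocyte transcripts were present on every array, with the mean of 23 markers between 7.03 and 9.48. Transcripts of other tissues were present too. Skeletal muscle markers (20 genes) averaged 7.16 to 10.00 on the intact arrays. Their day 2 range was 6.84 to 8.61, their day 14 range 8.65 to 11.28 with replicate 3 the highest, and their day 28 range 6.65 to 8.87. By limma none of the 20 was called against intact on any day, with median differences of -0.73 for day 2, 1.15 for day 14 and -0.40 for day 28 and a wide spread within groups. Neutrophil and marrow progenitor markers (20 genes) averaged 9.38 to 9.54, 8.86 to 9.53, 7.55 to 9.72 and 6.99 to 9.22 in the same order of groups. Day 14 replicate 2 and day 28 replicate 2 were the highest of their groups there.

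**Figure D1:**
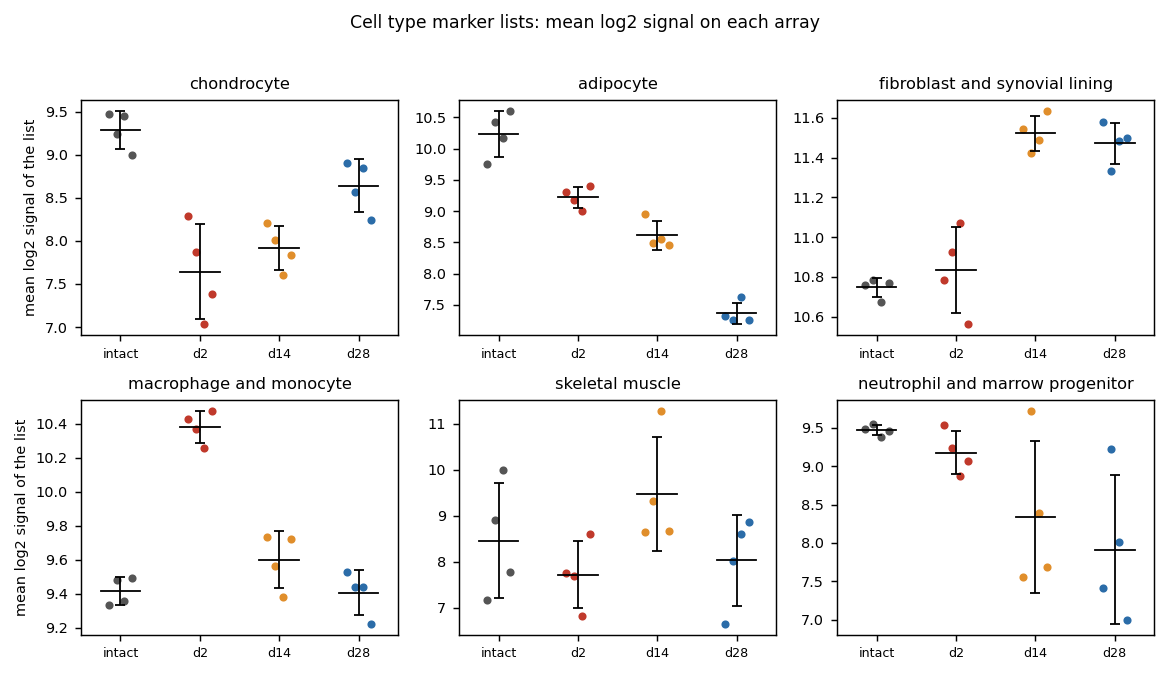
Mean log2 signal of 6 cell type marker lists on each array, in intact rats and at days 2, 14 and 28 (d2, d14, d28) after MIA. Points are arrays, bars are mean ± SD (n = 4 arrays), and each panel has its own axis. Adipocyte markers were at 7.26 to 7.62 at day 28, against 9.75 to 10.60 in intact rats, and muscle and marrow markers were spread widely within groups.

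More WNT members were called lower than higher at day 2, and 30 of the 54 were not called. The calls ran in both directions later. At day 2 against intact, 22 of the 54 fell and 2 rose, while over all probe sets 11.2% fell and 14.7% rose. At day 14 against intact, 12 fell and 7 rose, against 6.01% and 9.13% of all probe sets. At day 28 against intact, 8 fell and 13 rose, against 6.45% and 7.76% of all probe sets. Over the 18166 gene symbols, each taken by its brightest probe set, the shares were higher than over all probe sets, with 15.2% lower and 19.8% higher for day 2. For day 14 they were 8.74% lower and 12.2% higher, and for day 28 9.57% lower and 11.0% higher. As shares of the members, 40.7% fell at day 2, 22.2% at day 14 and 14.8% at day 28, while 3.7% rose at day 2, 13.0% at day 14 and 24.1% at day 28. The share of rises at day 14 was near that of all gene symbols. The median difference of the 54 members from intact was -0.29 for day 2, -0.10 for day 14 and 0.07 for day 28. Over all 18166 gene symbols it was -0.05, -0.03 and 0.01.

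The split of calls shifted with the scaling of the arrays. With each array centred on its median, 15 members fell and 4 rose at day 2, where Ctnnb1 and Dvl2 were the rises gained, and with cyclic loess 10 fell and 10 rose at day 28. No call of a member became a call in the other direction under any alternative.

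From day 2 to day 14 no member fell and 20 rose, while 7.83% of all probe sets fell and 6.71% rose (11.7% and 9.62% of gene symbols). From day 14 to day 28 Wnt16 and Axin2 rose and no member fell, while 0.188% of all probe sets rose and 0.273% fell (0.341% and 0.429% of gene symbols). At an unadjusted limma p under 0.05, 0 members were lower from day 2 to 14 and 2 from day 14 to 28. A test per probe set without moderation of the variance was also run, with adjustment. From day 2 to day 14 it lost 7 of the 20 rises and called 0 members lower. From day 14 to day 28 it lost the rises of Wnt16 and Axin2 and gained no call. That test thus called no member in either direction in the later step and cannot show whether any fell there. At day 28 against day 2, 28 members rose and Fzd4 fell, against 10.4% and 12.2% of all probe sets. These comparisons share arrays with those against intact rats. The F-test over the 4 groups passed for 33 of the 54 members, or 61.1%, against 31.0% of all probe sets. All probe sets include 17599 with no symbol used, unlike the members. No share over gene symbols was taken for the F-test or for day 28 against day 2. The lowest of the 4 group means was at day 2 for 34 members, in intact rats for 9, at day 14 for 8 and at day 28 for 3. The same was not counted over all probe sets, so these numbers do not set the members apart from the array.

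**Figure D2:**
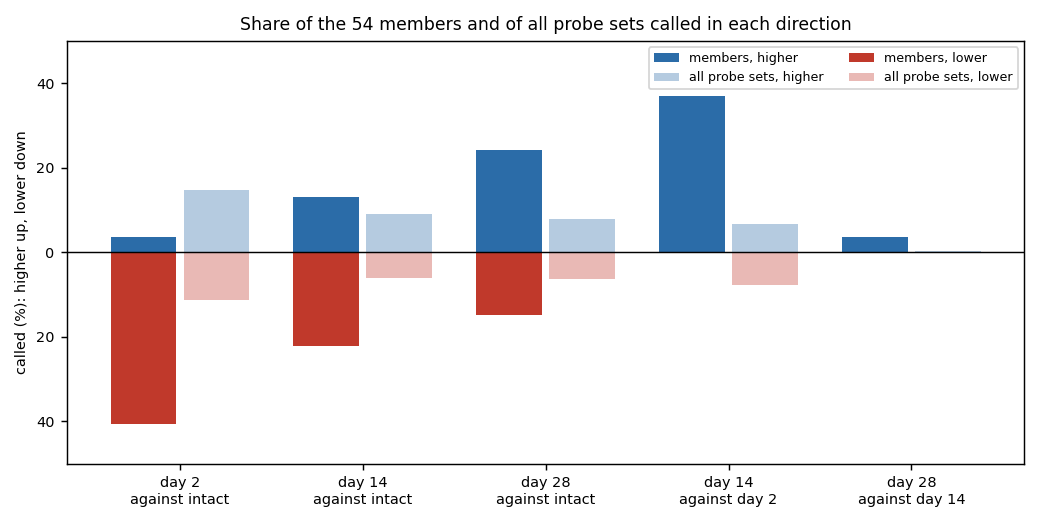
Percent of the 54 WNT members (full colour) and of all 36685 probe sets (pale) called higher (upward bars) or lower (downward bars) in each of 5 comparisons, at an adjusted p under 0.05. At day 2 against intact the members' bar for lower transcripts reaches 40.7%, beside 11.2% of all probe sets, and from day 2 to day 14 no member is called lower.

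Several cell type lists moved on the same days. At day 2 against intact, 16 of 23 chondrocyte, 14 of 15 adipocyte and 7 of 13 smooth muscle and pericyte markers fell, and 14 of 18 macrophage and monocyte and 14 of 14 cell division markers rose. At day 28, 8 of 23 chondrocyte, 15 of 15 adipocyte and 14 of 20 neutrophil and marrow progenitor markers fell, and 7 of 14 fibroblast and synovial lining markers rose. From day 2 to day 14, the step in which 20 members rose, 14 of 14 cell division, 12 of 18 macrophage and monocyte and 9 of 15 adipocyte markers fell. In that step 10 of 14 fibroblast and synovial lining, 6 of 13 smooth muscle and pericyte and 5 of 23 chondrocyte markers rose, and 1 of 20 skeletal muscle markers rose, with a median of 1.96 and positive values for all 20. With the neutrophil and marrow progenitor list as a covariate, 7 members fell and 4 rose at day 14, and 5 fell and 6 rose at day 28. The calls lost were those of Wnt5b, Fzd5, Ror1, Lgr4, Lgr5, Rnf43, Lef1 and Tcf7 at day 14 and of Wnt5b, Wnt9a, Porcn, Wls, Fzd9, Ror1, Lgr4, Lgr6, Dvl3 and Tcf7 at day 28. With the skeletal muscle list as a covariate, 25 members fell and 1 rose at day 2, 9 fell and 7 rose at day 14, and 9 fell and 12 rose at day 28. The part of the remaining lists in the results on WNT transcripts was not tested.

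The promoters of Axin2, Nkd1 and Tcf7 are shown because these were the members whose window held CTTTGAT, a spelling of the site that TCF and LEF factors bind. Axin2 and Nkd1 encode inhibitors known as targets of the pathway, and Tcf7 encodes one of those factors. The windows come from RefSeq (assembly GRCr8), run from 250 bases before to 50 bases after the gene's start, and are printed 5′ to 3′ on the gene's strand with the motif in capitals. They lie at chr10:94398535-94398834 on the plus strand for Axin2, at chr19:34722797-34723096 on the minus strand for Nkd1 and at chr10:36954230-36954529 on the minus strand for Tcf7.
Axin2: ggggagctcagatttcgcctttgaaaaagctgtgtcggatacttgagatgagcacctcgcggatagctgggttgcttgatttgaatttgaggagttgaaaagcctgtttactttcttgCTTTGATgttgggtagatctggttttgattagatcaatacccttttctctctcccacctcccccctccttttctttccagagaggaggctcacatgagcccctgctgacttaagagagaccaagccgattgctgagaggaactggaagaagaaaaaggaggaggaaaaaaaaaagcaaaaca
Nkd1: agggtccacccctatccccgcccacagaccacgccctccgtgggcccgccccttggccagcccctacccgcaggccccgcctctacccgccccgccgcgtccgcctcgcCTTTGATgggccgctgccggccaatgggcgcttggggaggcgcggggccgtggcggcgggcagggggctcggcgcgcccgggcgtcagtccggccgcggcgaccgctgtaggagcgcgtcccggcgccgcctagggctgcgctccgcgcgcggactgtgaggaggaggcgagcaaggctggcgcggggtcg
Tcf7: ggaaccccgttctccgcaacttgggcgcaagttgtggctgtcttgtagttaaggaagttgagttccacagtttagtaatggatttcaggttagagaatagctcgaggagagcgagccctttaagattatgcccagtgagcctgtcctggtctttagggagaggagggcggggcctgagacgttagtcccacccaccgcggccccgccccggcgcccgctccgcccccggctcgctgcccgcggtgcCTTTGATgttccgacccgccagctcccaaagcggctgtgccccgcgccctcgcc
The motif lay at bases 119 to 125 of the Axin2 window, 110 to 116 of the Nkd1 window and 247 to 253 of the Tcf7 window. The table of promoters held 43 of the 54 members, and CTTTGAT was searched on both strands, where its reverse complement is ATCAAAG. It was found in 3 of the 43 (6.98%) and in 1216 of 33469 promoters of all genes (3.63%). The shorter spellings TTTGAT and CTTTGA, which both lie within it, were in 5 of 43 members each (11.6%), against 11.8% and 16.1% of all promoters. The spellings were chosen after the values had been seen, and a match describes letters only. Against intact, Axin2 was called lower at day 2, Nkd1 lower at days 2 and 28 and Tcf7 higher at days 14 and 28.

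Among the ligands 13 of 19 were called on no day. At day 2, 4 fell (21.1%, against 15.2% of gene symbols). At day 14, 2 rose (10.5%, against 12.2%), which is near the share of all gene symbols. At day 28, 4 rose (21.1%, against 11%). Wnt1, Wnt2, Wnt2b, Wnt3, Wnt3a, Wnt4, Wnt6, Wnt7a, Wnt7b, Wnt8a, Wnt8b, Wnt9b and Wnt10b made up the uncalled group, with differences from intact between -0.33 (Wnt2 at day 2) and 0.36 (Wnt7b at day 28).

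Wnt5a had the largest change of the ligands. It encodes a ligand known mainly for signalling without beta-catenin. Its log2 signals were 6.69, 6.93, 6.58 and 7.12 on the intact arrays, 6.96, 6.91, 7.06 and 7.20 on the day 2 arrays, 8.15, 7.71, 7.86 and 8.38 for day 14, and for day 28 7.81, 7.85, 7.92 and 7.82. All arrays of days 14 and 28 lay above all intact arrays, and those of day 2 overlapped with them. The difference from intact was 0.20 ± 0.14 (SE) at day 2 (adjusted p = 0.312), 1.20 ± 0.14 at day 14 (7.14e-05) and 1.02 ± 0.14 at day 28 (0.000187). Wnt5b, its closest relative, rose less, by 0.36 at day 14 (adjusted p = 0.0464) and 0.46 at day 28 (0.012). The day 14 call for Wnt5b was lost without any 1 of 11 arrays, which were all but intact replicate 4, day 2 replicates 1, 3 and 4 and day 14 replicate 3 (adjusted p up to 0.127).

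Wnt9a and Wnt16 were low at day 2 and high at day 28. Wnt9a is known from mice for its part in the forming joint. Its signals were 7.20, 6.91, 6.71 and 7.15 on the intact arrays, 6.82, 6.66, 6.44 and 6.41 on the day 2 arrays, 7.31, 7.37, 7.34 and 7.50 for day 14, and for day 28 7.80, 7.29, 7.68 and 7.67. Intact and day 2 arrays overlapped, whereas every day 28 array lay above every intact array. Wnt9a fell by 0.41 at day 2 (adjusted p = 0.0307) and rose by 0.62 at day 28 (0.00509), with a value of 0.39 at day 14 that was not called (0.0613). Several other limma fits called Wnt9a higher at day 14. Among them were arrays centred on their median (adjusted p = 0.0349), the filter on dim probe sets (0.0327) and the skeletal muscle covariate (0.0269). The day 2 call was lost without any 1 of 4 arrays, intact replicates 1 and 4 and day 2 replicates 3 and 4 (adjusted p up to 0.0937).

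Wnt16 is a ligand known from mice and humans for its effect on cortical bone. Its signals were 6.52, 6.30, 6.24 and 6.36 on the intact arrays, 5.92, 6.09, 6.05 and 6.19 on the day 2 arrays, 6.11, 6.21, 6.26 and 6.28 for day 14, and for day 28 6.80, 6.87, 6.99 and 7.23. The day 2 arrays lay below and the day 28 arrays above all intact arrays. The difference from intact was -0.29 ± 0.10 at day 2 (adjusted p = 0.0377) and 0.62 ± 0.10 at day 28 (0.000619), and from day 14 to day 28 it rose by 0.76 (0.00317). The day 2 call was lost without any 1 of 5 arrays, intact replicates 1 and 4 and day 2 replicates 1, 2 and 3 (adjusted p up to 0.112). Wnt16 lay below the median of all values on every array except those of day 28.

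Wnt11 and Wnt10a fell at day 2 only. Wnt11, known for roles in cell movement, averaged 7.10 in intact rats, 6.55 at day 2, 6.82 at day 14 and 6.88 at day 28, and its day 2 arrays all lay below the intact arrays (-0.56, adjusted p = 0.00133). Wnt10a, a ligand known from tooth and skin, differed by -0.36 at day 2 (0.0329). That call was lost without any 1 of 6 arrays, intact replicates 1, 2, 3 and 4 and day 2 replicates 2 and 3 (adjusted p up to 0.104). Wnt10a did not pass the F-test over the 4 groups (adjusted p = 0.112).

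Both transcripts needed for ligand release were likewise called lower at day 2 and higher at day 28. Porcn encodes the acyltransferase that attaches the lipid to WNT proteins, and Wls encodes the carrier that takes them to the cell surface. Wls averaged 9.98 in intact rats, 9.62 at day 2, 10.19 at day 14 and 10.26 at day 28. It fell by 0.35 at day 2 (adjusted p = 0.00553) and rose by 0.29 at day 28 (0.0336), with no overlap with the intact arrays on either day. Porcn differed by -0.28 at day 2 (0.0177) and 0.29 at day 28 (0.0261), again with no overlap. The step from day 2 to day 14 was 0.57 (Wls, 0.000231) and 0.44 (Porcn, 0.00144). The day 28 call of Wls was lost without any 1 of 6 arrays, intact replicates 1, 3 and 4 and day 28 replicates 1, 3 and 4 (adjusted p up to 0.117). For Porcn the day 2 call was lost without any 1 of 3 arrays, intact replicate 1 and day 2 replicates 2 and 3 (adjusted p up to 0.0609), and the day 28 call without any 1 of 5 arrays, intact replicates 2, 3 and 4 and day 28 replicates 3 and 4 (adjusted p up to 0.073).

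The Frizzled receptors split into members that rose, members that stayed low and members called lower at day 2 alone. At day 2, 5 of 9 fell and 1 rose (55.6% and 11.1%, against 15.2% and 19.8% of gene symbols). At day 14, 3 fell and 2 rose (33.3% and 22.2%, against 8.74% and 12.2%). At day 28, 2 fell and 2 rose (22.2% each, against 9.57% and 11%). Fzd7 and Fzd10 were called on no day, with values between -0.40 (Fzd10 at day 2) and 0.09 (Fzd7 at day 28).

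Fzd1 and Fzd2, which encode closely related receptors, rose by more than 2-fold at days 14 and 28. The signals of Fzd1 were 7.10, 7.17, 6.91 and 7.20 on the intact arrays, 7.36, 7.65, 7.90 and 7.25 on the day 2 arrays, 8.33, 7.89, 8.12 and 8.61 for day 14, and for day 28 8.32, 8.14, 8.11 and 8.25. All MIA arrays lay above all intact arrays. The difference was 0.44 ± 0.15 at day 2 (adjusted p = 0.0445), 1.14 ± 0.15 at day 14 (0.000199) and 1.11 ± 0.15 at day 28 (0.000202), so that Fzd1 was the one member called higher on all 3 days. Its day 2 call was lost without any 1 of 11 arrays, which were all but day 2 replicates 1 and 4 and day 14 replicates 2, 3 and 4 (adjusted p up to 0.146).

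Fzd2 had signals of 8.63, 8.68, 8.61 and 8.67 on the intact arrays, 8.74, 9.04, 9.30 and 8.58 on the day 2 arrays, 9.72, 9.63, 9.93 and 9.96 for day 14, and for day 28 9.78, 9.47, 9.85 and 9.85. The intact arrays were tightly grouped, day 2 overlapped with them through replicate 4, and all later arrays were higher. Fzd2 rose by 1.16 at day 14 (adjusted p = 7.67e-05) and 1.09 at day 28 (9.29e-05), and its value at day 2 was 0.27 (0.166). On the same days fibroblast and synovial lining markers averaged 11.42 to 11.64 at day 14 and 11.33 to 11.58 at day 28, against 10.67 to 10.79 in intact rats, with 8 of 14 markers higher at day 14. The part of that list in the rise of Fzd1, Fzd2, Wnt5a and the ROR receptors was not tested.

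Fzd8 and Fzd6 fell at day 2 and were not called against intact later. Fzd8 is among the transcripts that the study itself picked on these arrays, so it is not independent evidence for the direction of the members. Its signals were 9.31, 9.36, 9.34 and 9.17 on the intact arrays, 8.08, 8.10, 8.01 and 8.18 on the day 2 arrays, 9.44, 9.09, 9.01 and 8.95 for day 14, and for day 28 9.42, 9.34, 9.31 and 9.44. No day 2 array reached the level of any other array of the series. Fzd8 was 2.31-fold lower at day 2 against intact (-1.21 ± 0.10, adjusted p = 6.14e-07) and rose by 1.03 from day 2 to day 14 (4.79e-06). At day 28 the value was 0.08 ± 0.10 and was not called (0.691).

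Fzd6 encodes a receptor known from mice for the orientation of hair follicles. It had signals of 9.26, 9.30, 9.22 and 9.07 on the intact arrays, 8.51, 8.41, 8.29 and 8.58 on the day 2 arrays, 9.24, 8.89, 8.98 and 8.95 for day 14, and for day 28 9.35, 9.19, 9.31 and 9.52. As for Fzd8, the day 2 arrays lay below all others. The difference was -0.77 ± 0.10 at day 2 (adjusted p = 3.73e-05), -0.20 at day 14 (0.198) and 0.13 at day 28 (0.479), and from day 2 to day 14 it rose by 0.57 (0.000837).

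Fzd9 had the largest difference from intact of all members. It encodes a receptor whose loss in mice lowers bone mass. Its signals were 8.01, 7.53, 7.75 and 7.53 on the intact arrays, 6.66, 6.46, 5.84 and 6.22 on the day 2 arrays, 6.70, 6.76, 6.43 and 6.82 for day 14, and for day 28 7.16, 7.24, 7.36 and 6.88. All MIA arrays lay below all intact arrays, most of all at day 2. Fzd9 was 2.65-fold lower at day 2 (-1.41 ± 0.17, adjusted p = 1.92e-05), 2.04-fold lower at day 14 (0.000746) and 1.46-fold lower at day 28 (0.0402). The day 28 call was lost without any 1 of 6 arrays, intact replicates 1 and 3, day 14 replicate 1 and day 28 replicates 1, 2 and 4 (adjusted p up to 0.123). Chondrocyte markers fell in number in the same order, 16, 12 and 8 of 23 at days 2, 14 and 28, with list means of 7.03 to 8.29, 7.60 to 8.21 and 8.24 to 8.91 against 9.00 to 9.48 in intact rats. Their part in the Fzd9 result was not tested.

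Fzd4 was called lower on all 3 days, and lower at day 28 than at day 2 (-0.51, adjusted p = 0.00751). Its receptor is known for its part in the growth of retinal vessels. The signals were 10.60, 11.07, 10.94 and 11.24 on the intact arrays, 10.55, 10.52, 10.56 and 10.56 on the day 2 arrays, 10.60, 10.27, 10.52 and 10.44 for day 14, and for day 28 10.05, 9.77, 10.10 and 10.21. Every day 2 array lay just below the lowest intact array, which was replicate 1, and every day 28 array lay below every array of the other groups. The difference was -0.42 ± 0.13 at day 2 (adjusted p = 0.0228), -0.51 ± 0.13 at day 14 (0.0129) and -0.93 ± 0.13 at day 28 (0.000163). The day 2 call was lost without any 1 of 3 arrays, intact replicates 2 and 4 and day 2 replicate 2 (adjusted p up to 0.078). Adipocyte markers had the same order of groups, with list means of 9.00 to 9.39 for day 2, 8.46 to 8.95 for day 14 and 7.26 to 7.62 for day 28, against 9.75 to 10.60 in intact rats. Endothelial markers averaged 9.04 to 9.42 on the day 2 arrays, 9.03 to 9.22 for day 14 and 8.99 to 9.21 for day 28, against 9.40 to 9.55 in intact rats, and 4, 7 and 5 of 12 fell. The part of these lists in the fall of Fzd4 was not tested.

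Fzd5 differed by -0.34 at day 2 (adjusted p = 0.048) and -0.46 at day 14 (0.019), and by -0.30 at day 28 without a call (0.12). The day 2 call was lost without any 1 of 13 arrays, which were all but intact replicate 3, day 2 replicate 4 and day 14 replicate 3 (adjusted p up to 0.149). The day 14 call was lost without any 1 of 3 arrays, intact replicate 1 and day 14 replicates 3 and 4 (adjusted p up to 0.0621).

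**Figure D3:**
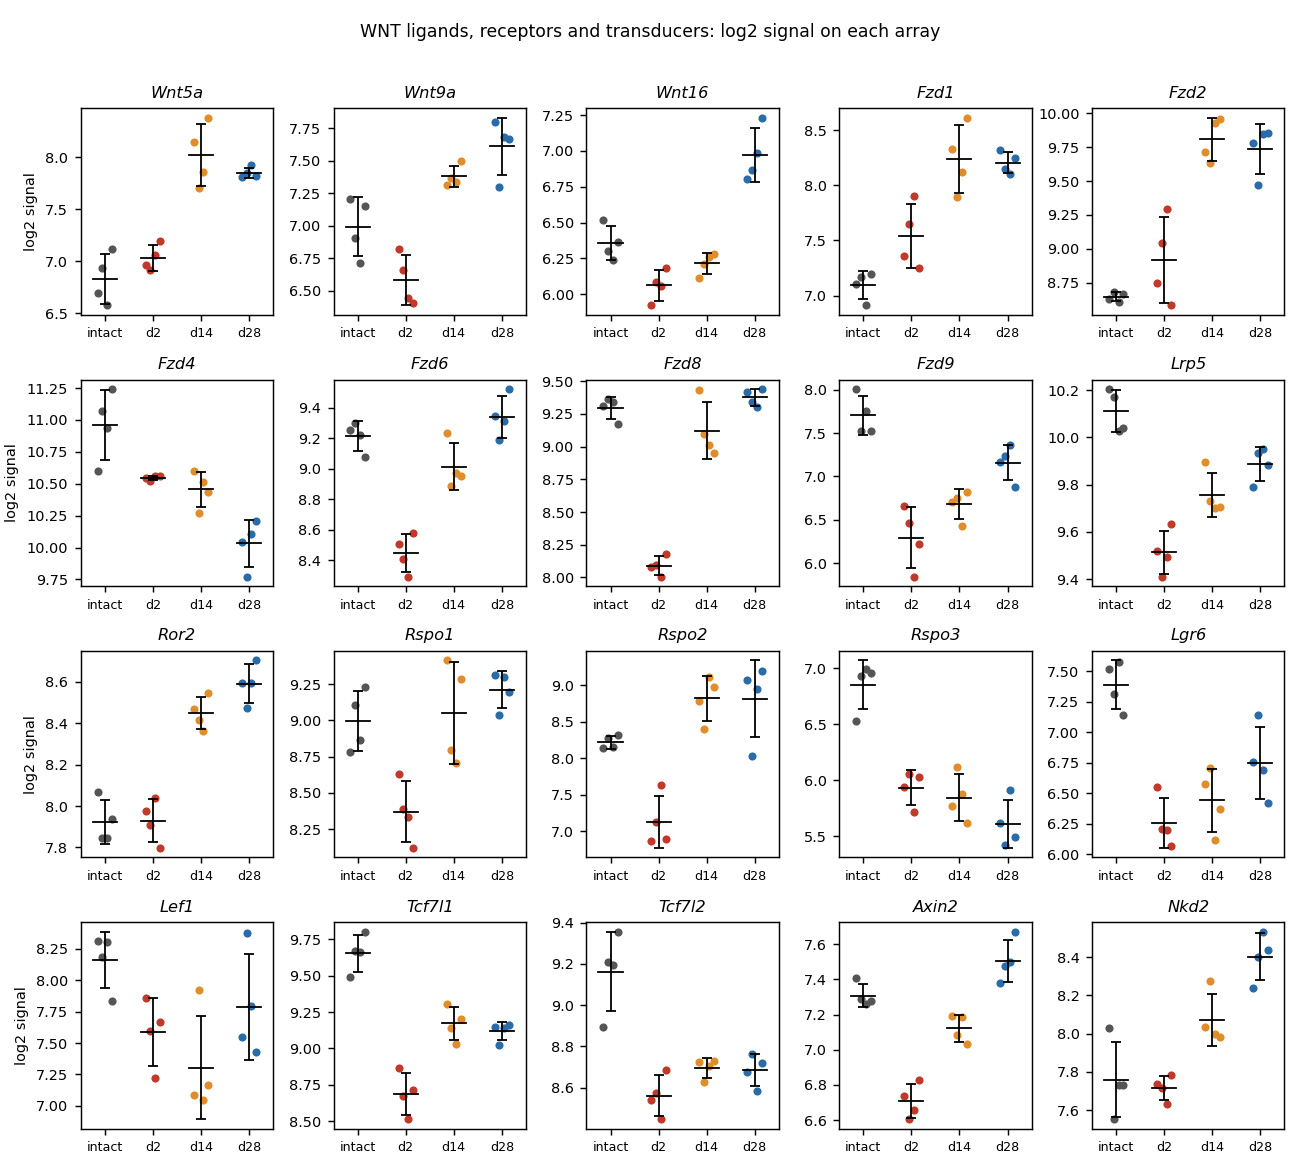
Log2 signal of 20 WNT members on each of the 16 arrays, in intact rats and at days 2, 14 and 28 (d2, d14, d28) after MIA. Points are arrays, bars are mean ± SD (n = 4 arrays), and each panel has its own axis, which does not start at 0. Fzd8 and Fzd6 were low at day 2 alone, Wnt5a, Fzd1 and Fzd2 were higher at days 14 and 28, Rspo3 and Fzd9 were lower on all 3 days, and Wnt16 was highest at day 28.

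Of the co-receptors, Lrp5 and Lrp6 were called only lower and Ror1 and Ror2 only higher against intact. Lrp5 and Lrp6 encode the co-receptors of the beta-catenin branch, and variants of human LRP5 are known to change bone mass. Lrp5 had signals of 10.20, 10.17, 10.03 and 10.04 on the intact arrays, 9.52, 9.41, 9.49 and 9.63 on the day 2 arrays, 9.90, 9.73, 9.70 and 9.71 for day 14, and for day 28 9.79, 9.93, 9.95 and 9.88. All arrays of every MIA group lay below all intact arrays, with day 2 the lowest. Lrp5 fell by 0.60 at day 2 (adjusted p = 3.62e-05) and by 0.35 at day 14 (0.00555), and its value at day 28 was -0.22 without a call (0.0658). Other limma fits called Lrp5 lower at day 28. These were cyclic loess (adjusted p = 0.0108), the filter on dim probe sets (0.0251) and the intensity trend (0.0303). The rise from day 2 to day 14 was 0.24 (0.0427) and was lost without any 1 of 10 arrays, which were all but intact replicates 1, 2, 3 and 4, day 2 replicate 4 and day 28 replicate 1 (adjusted p up to 0.138).

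Lrp6 averaged 10.55 in intact rats, 10.15 at day 2, 10.67 at day 14 and 10.52 at day 28. It fell at day 2 only (-0.40, adjusted p = 0.00191), with no overlap between day 2 and intact arrays, and rose by 0.52 from day 2 to day 14 (0.000401).

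Ror2 and Ror1 encode the receptors of the other branch, to which WNT5A binds. The signals of Ror2 were 8.07, 7.84, 7.85 and 7.94 on the intact arrays, 7.98, 7.91, 8.04 and 7.80 on the day 2 arrays, 8.47, 8.42, 8.36 and 8.54 for day 14, and for day 28 8.59, 8.48, 8.59 and 8.70. Day 2 overlapped with the intact arrays, and every later array was above both. Ror2 differed by 0.01 ± 0.08 at day 2 (adjusted p = 0.962), 0.52 ± 0.08 at day 14 (0.000484) and 0.67 ± 0.08 at day 28 (5.9e-05). Ror1 averaged 8.39 in intact rats, 8.20 at day 2, 8.90 at day 14 and 8.81 at day 28 and rose by 0.52 at day 14 (0.0154) and 0.42 at day 28 (0.044), with overlap through intact replicate 3 on both days. The day 14 call of Ror1 was lost without any 1 of 2 arrays, intact replicate 4 and day 14 replicate 4 (adjusted p up to 0.0579), and the day 28 call without any 1 of 9 arrays, which were all but intact replicate 3, day 2 replicates 3 and 4, day 14 replicates 2, 3 and 4 and day 28 replicate 2 (adjusted p up to 0.122). Wnt5a, Ror1 and Ror2 were thus all called higher at days 14 and 28, and none of them at day 2.

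Of the R-spondin axis, 5 members were called lower than intact at day 2. R-spondins bind LGR receptors and remove the ubiquitin ligases ZNRF3 and RNF43, which otherwise take Frizzled receptors off the cell surface. Of its 8 measured members 5 fell at day 2, 5 at day 14 and 3 at day 28, and none was called higher in the fit over all 16 arrays. Those falls were 62.5%, 62.5% and 37.5% of the 8, against 15.2%, 8.74% and 9.57% of gene symbols. Over gene symbols 19.8%, 12.2% and 11% rose. At an unadjusted p under 0.05 Rspo2 was higher at days 14 and 28, and other limma fits called it after adjustment. Rspo4 was called on no day, with values between -0.17 and 0.06.

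Rspo2, known from mice and humans for limb formation, had signals of 8.14, 8.28, 8.16 and 8.31 on the intact arrays, 6.86, 7.12, 7.64 and 6.90 on the day 2 arrays, 8.79, 8.41, 9.12 and 8.98 for day 14, and for day 28 9.07, 8.04, 8.95 and 9.19. All day 2 arrays lay below, and all day 14 arrays above, every intact array, while at day 28 replicate 2 lay below the intact arrays and the other 3 above them. Rspo2 was 2.13-fold lower at day 2 against intact (-1.09 ± 0.23, adjusted p = 0.00252) and rose 3.23-fold from day 2 to day 14 (1.69 ± 0.23, 0.000124), the largest step between days of any member. At days 14 and 28 it was not called against intact (0.60, 0.101 and 0.59, 0.115). Without day 28 replicate 2 it was called higher on both days (adjusted p = 0.0296 for day 14 and 0.00706 for day 28), as it was without the 2 later arrays with marrow signal (0.00795 and 0.00331), and at day 14 also with the compared arrays alone (0.04). With the marrow list as a covariate the values were 0.16 and -0.01 (0.676 and 0.99).

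Rspo1 had signals of 8.78, 9.11, 8.87 and 9.23 on the intact arrays, 8.63, 8.39, 8.34 and 8.12 on the day 2 arrays, 9.41, 8.79, 8.71 and 9.28 for day 14, and for day 28 9.32, 9.04, 9.30 and 9.20. Day 2 was below all intact arrays, and day 14 held a pair of high and a pair of lower arrays that spanned the intact range. The difference was -0.63 ± 0.16 at day 2 (adjusted p = 0.00876), and the values at days 14 and 28 were 0.05 and 0.21 without a call. It rose by 0.68 from day 2 to day 14 (0.00866).

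Rspo3 was called lower on all 3 days. Rspo3 is known for its part in blood vessel formation. Its signals were 6.53, 6.93, 6.99 and 6.96 on the intact arrays, 5.94, 6.06, 5.71 and 6.03 on the day 2 arrays, 5.77, 6.12, 5.87 and 5.62 for day 14, and for day 28 5.62, 5.43, 5.91 and 5.49. All MIA arrays lay below all intact arrays, including intact replicate 1, which stood apart from the other intact arrays. Rspo3 fell by 0.92 at day 2 (adjusted p = 0.000157), by 1.01 at day 14 (0.000233) and by 1.24 at day 28 (3.27e-05). Its signal was above the median of all values on 3 intact arrays alone, and a filter on dim probe sets took it out.

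Of the receptors for R-spondins, Lgr6 fell most. Its signals were 7.52, 7.31, 7.58 and 7.14 on the intact arrays, 6.55, 6.21, 6.20 and 6.07 on the day 2 arrays, 6.58, 6.70, 6.11 and 6.37 for day 14, and for day 28 6.75, 7.14, 6.69 and 6.42. Every MIA array of days 2 and 14 lay below every intact array, and day 28 replicate 2 came closest, just below the lowest intact array. Lgr6 was 2.19-fold lower at day 2 (0.00011), 1.93-fold lower at day 14 (0.00122) and 1.56-fold lower at day 28 (0.0156, adjusted p throughout). The day 28 call was lost without day 28 replicate 4 (adjusted p = 0.0551).

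Lgr4 fell by less, with -0.29 at day 2 (adjusted p = 0.021), -0.35 at day 14 (0.0135) and -0.30 at day 28 (0.0336), and no MIA array reached the intact range. The day 2 call was lost without any 1 of 3 arrays, intact replicates 1 and 3 and day 2 replicate 1 (adjusted p up to 0.0646), and the day 28 call without any 1 of 6 arrays, intact replicates 1, 2 and 3 and day 28 replicates 1, 3 and 4 (adjusted p up to 0.115). Lgr5, known as a mark of intestinal stem cells, and the ligase Rnf43 fell at day 14 and were not called on the other days in the fit over all 16 arrays. They differed from intact by -0.35 (Lgr5, 0.022) and -0.51 (Rnf43, 0.0358). The Lgr5 call was lost without any 1 of 4 arrays, intact replicates 1 and 4 and day 14 replicates 3 and 4 (adjusted p up to 0.0704). Lgr5 was called lower at both day 2 and day 28 with the skeletal muscle list as a covariate, without intact replicate 2 and without day 14 replicate 3, and at day 28 also with cyclic loess. The Rnf43 call was lost without any 1 of 5 arrays, intact replicates 1, 3 and 4 and day 14 replicates 1 and 3 (adjusted p up to 0.102). Rnf43 did not pass the F-test over the 4 groups (adjusted p = 0.0812).

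The cytoplasmic transducers had the smallest differences from intact of the role groups, none beyond 0.27. Ctnnb1, which encodes beta-catenin itself, averaged 10.95 in intact rats, 11.12 at day 2, 11.02 at day 14 and 11.14 at day 28 and was called in no comparison of the fit over all 16 arrays, with differences from intact of 0.17, 0.07 and 0.19. Dvl1 and Dvl2, relays between receptor and destruction complex, were not called against intact in that fit either, with values between -0.22 and 0.15. With each array centred on its median, Ctnnb1 and Dvl2 were called higher at day 2. Other alternatives called Dvl1 and Dvl3 lower at day 2. Cyclic loess, the filter on dim probe sets and the fit without day 2 replicate 1 did so for both. For Dvl3 the adjusted p was 0.00431 (-0.33), 0.03 and 0.0164 in that order, and 0.0349 with the intensity trend. Axin1, the scaffold of the complex that destroys beta-catenin, rose at day 2 by 0.27 (adjusted p = 0.0184), and the call was lost without day 2 replicate 1 (adjusted p = 0.0548). That call was also lost with cyclic loess and with only the arrays compared. Axin1 did not pass the F-test over the 4 groups (adjusted p = 0.0754). Dvl3 rose at day 28 by 0.24 (0.0418), and that call was lost without any 1 of 12 arrays, which were all but day 2 replicates 1, 3 and 4 and day 28 replicate 2 (adjusted p up to 0.132). Dvl3 also rose by 0.33 from day 2 to day 14 (0.00689).

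Of the nuclear factors, Tcf7l1 and Tcf7l2 fell on all 3 days, Tcf7 rose at days 14 and 28 and Lef1 fell at day 14. Tcf7l1 encodes a factor that acts mostly as a repressor. Its signals were 9.49, 9.67, 9.66 and 9.80 on the intact arrays, 8.86, 8.67, 8.51 and 8.71 on the day 2 arrays, 9.31, 9.14, 9.03 and 9.20 for day 14, and for day 28 9.15, 9.03, 9.14 and 9.16. Day 2 was the lowest group and no MIA array reached the intact range. Tcf7l1 fell by 0.96 at day 2 (adjusted p = 2.58e-06), by 0.48 at day 14 (0.0022) and by 0.54 at day 28 (0.000992), and it rose by 0.48 from day 2 to day 14 (0.00164).

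Tcf7l2, the factor known best from gut epithelium and from human diabetes risk, had signals of 8.89, 9.21, 9.19 and 9.35 on the intact arrays, 8.54, 8.57, 8.45 and 8.69 on the day 2 arrays, 8.73, 8.63, 8.70 and 8.73 for day 14, and for day 28 8.67, 8.76, 8.58 and 8.72. Every MIA array was below every intact array, and the 3 MIA groups lay close together. The difference was -0.60 ± 0.09 at day 2 (adjusted p = 0.000165), -0.47 ± 0.09 at day 14 (0.0029) and -0.48 ± 0.09 at day 28 (0.00249).

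Lef1 had signals of 8.32, 8.19, 8.30 and 7.83 on the intact arrays, 7.86, 7.60, 7.22 and 7.67 on the day 2 arrays, 7.09, 7.92, 7.05 and 7.16 for day 14, and for day 28 7.55, 8.38, 7.80 and 7.43. Day 14 replicate 2 and day 28 replicate 2 were far above the other arrays of their groups, and all 3 MIA groups overlapped with the intact arrays. The same 2 arrays had the most neutrophil and marrow progenitor signal of their groups, with list means of 9.72 at day 14 replicate 2 and 9.22 at day 28 replicate 2, against 9.38 to 9.54 on the intact arrays. Lef1 is also known from developing lymphocytes. With all arrays in the fit it fell at day 14 by 0.86 (adjusted p = 0.0179). That fit did not call it at day 2 (-0.57, 0.074) or day 28 (-0.37, 0.342). The day 14 call was lost without any 1 of 3 arrays, day 14 replicates 1, 3 and 4 (adjusted p up to 0.0553). With the marrow list as a covariate the difference was -0.38 (adjusted p = 0.147) at day 14 and 0.28 (0.471) at day 28. The same covariate gave a called fall at day 2 (-0.45, 0.0168) and a called rise from day 14 to day 28 (0.66, 0.0379). Without the 2 later arrays with marrow signal, Lef1 was called lower at day 2 (0.0097) and day 28 (-0.57, 0.0271). The filter on dim probe sets (0.0471) and the compared arrays alone (0.0326) also called it lower at day 2.

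Tcf7 averaged 8.60 in intact rats, 8.38 at day 2, 8.89 at day 14 and 8.97 at day 28. It rose by 0.29 at day 14 (adjusted p = 0.0478) and 0.36 at day 28 (0.0152), with all arrays of both days above all intact arrays. The day 14 call was lost without any 1 of 13 arrays, which were all but intact replicate 4, day 2 replicate 1 and day 14 replicate 2 (adjusted p up to 0.132), and the day 28 call without day 28 replicate 4 (adjusted p = 0.0512). From day 2 to day 14 the rise was 0.51 (0.00121).

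The feedback inhibitors took separate courses. Axin2 is a target of beta-catenin that rebuilds its destruction complex and is widely read as a gauge of the pathway. Its signals were 7.41, 7.29, 7.26 and 7.27 on the intact arrays, 6.74, 6.60, 6.66 and 6.83 on the day 2 arrays, 7.19, 7.08, 7.18 and 7.03 for day 14, and for day 28 7.38, 7.47, 7.50 and 7.67. Day 2 was below and day 14 just below all intact arrays, and day 28 overlapped with intact replicate 1. Axin2 fell by 0.60 at day 2 (adjusted p = 4.82e-05), and its values at days 14 and 28 were -0.19 (0.136) and 0.20 (0.12). It rose by 0.41 from day 2 to day 14 (0.0018) and by 0.38 from day 14 to day 28 (0.0477). The last call was lost without any 1 of 14 arrays, which were all but intact replicate 1 and day 2 replicate 4 (adjusted p up to 0.163).

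Nkd1 and Nkd2 encode inhibitors that bind Dishevelled proteins. Nkd2 had signals of 8.03, 7.55, 7.73 and 7.73 on the intact arrays, 7.74, 7.72, 7.63 and 7.78 on the day 2 arrays, 8.04, 8.28, 8.00 and 7.98 for day 14, and for day 28 8.24, 8.40, 8.53 and 8.44. Day 2 lay within the intact range, day 14 overlapped with it through intact replicate 1, and all day 28 arrays were above it. The difference was -0.04 ± 0.10 at day 2 (adjusted p = 0.797), 0.31 ± 0.10 at day 14 (0.0513) and 0.64 ± 0.10 at day 28 (0.000624). At day 14 other limma fits called Nkd2 higher. The adjusted p was 0.0198 with arrays centred on their median and 0.0245 with the filter on dim probe sets. With the intensity trend it was 0.0407, and without intact replicate 1 it was 0.0122. The rise from day 2 to day 14 was 0.36 (0.0282), which was lost without any 1 of 5 arrays, day 2 replicates 1, 2 and 3 and day 14 replicates 1 and 2 (adjusted p up to 0.0841). Nkd1 averaged 8.29 in intact rats, 7.87 at day 2, 8.13 at day 14 and 7.84 at day 28. It fell by 0.41 at day 2 (0.00549) and by 0.44 at day 28 (0.00679), with no overlap with the intact arrays on those days, and had a value of -0.15 at day 14 (0.341).

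**Figure D4:**
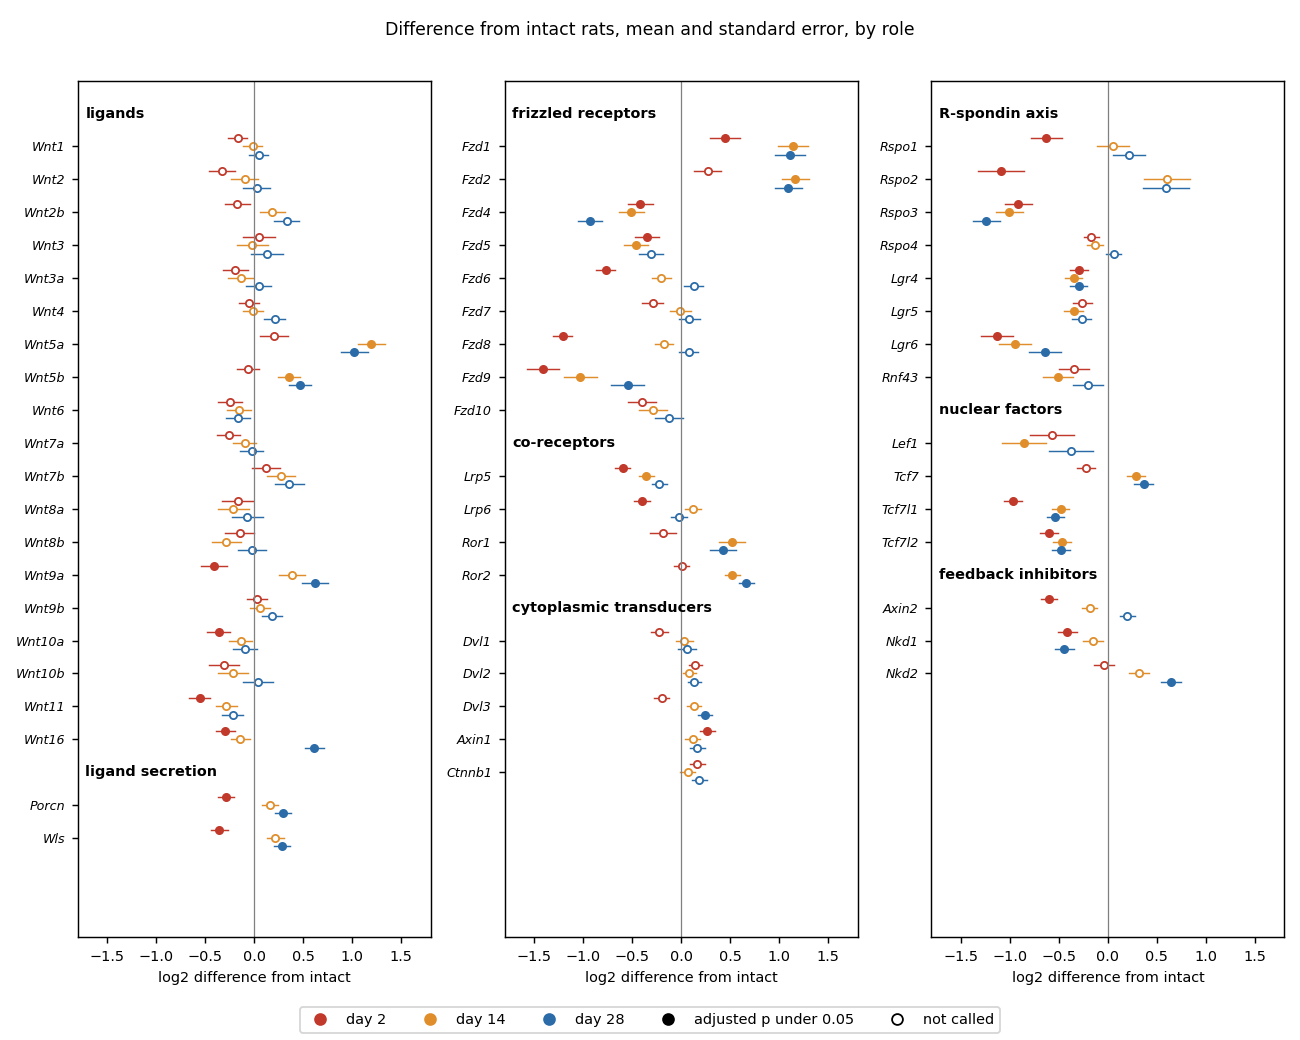
Log2 difference from intact rats for the 54 WNT members, grouped by role, at day 2 (red), day 14 (orange) and day 28 (blue). Circles are differences of group means, lines are ± 1 standard error of the limma fit, and filled circles have an adjusted p under 0.05. Ligands lay mostly near 0, Fzd9 at day 2 was the farthest to the left, and Wnt5a, Fzd2 and Fzd1 at days 14 and 28 were the farthest to the right.

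By course, 19 members were called on no day against intact. Those lower at day 2 only numbered 8 (Wnt10a, Wnt11, Fzd6, Fzd8, Lrp6, Rspo1, Rspo2 and Axin2). Those lower on all 3 days numbered 7 (Fzd4, Fzd9, Rspo3, Lgr4, Lgr6, Tcf7l1 and Tcf7l2). Wnt5a, Wnt5b, Fzd2, Ror1, Ror2 and Tcf7 were higher at days 14 and 28, and Wnt9a, Wnt16, Porcn and Wls were lower at day 2 and higher at day 28. A call on 1 day and none on another does not show that the days differ, and the comparisons between days above are the tests of that. Courses were not counted over all probe sets, so these numbers describe the members and do not set them apart from the array.

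Other genes of the pathway were counted for context, in lists of genes that are not members, and the counts are read beside the shares of all gene symbols given above. Frzb, Bmp4, Prkca and Prkd1, named below, are like Fzd8 among the transcripts that the study itself picked on these arrays. They are therefore not independent evidence either. Of 19 antagonists, 6 fell and 1 rose at day 2, and 6 fell and 6 rose at day 14. At day 28, 3 fell and 6 rose. The median differences were -0.27, -0.19 and -0.04 in that order. Most of the 19 are secreted, while Kremen1, Kremen2 and Apcdd1 are membrane proteins. Wif1, which binds WNT proteins, averaged 10.62 in intact rats, 7.95 at day 2, 7.64 at day 14 and 8.67 at day 28, and Frzb, a decoy receptor, averaged 10.44 in intact rats, 7.84 at day 2, 7.66 at day 14 and 8.06 at day 28. Wif1 was 6.33-fold lower at day 2 and 7.86-fold lower at day 14 (adjusted p = 8.11e-06 and 1.53e-05), and Frzb 6.06-fold and 6.88-fold lower (1.11e-07 and 3.95e-07). Both differences at day 2 were larger than that of any member. Sfrp1, a relative of Frzb, rose by 1.50, 1.93 and 1.03 at days 2, 14 and 28 (7.88e-05, 3.81e-05 and 0.00375). Dkk3, a divergent Dickkopf protein, fell by 1.81 at day 2 (3.43e-07) and rose by 0.70 at day 28 (0.00254).

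Among 17 further transcripts known as targets of beta-catenin, 5 fell and 3 rose at day 2, 3 fell and 6 rose at day 14, and 3 fell and 8 rose at day 28, with medians of -0.19, 0.01 and 0.19. Tnfrsf11b, which encodes osteoprotegerin, the decoy receptor that restrains osteoclasts, was 4.49-fold lower at day 2, 3.32-fold lower at day 14 and 1.87-fold lower at day 28 (adjusted p = 9.37e-09, 1.51e-07 and 1.42e-05). Bmp4 and Met, a bone morphogenetic protein and the receptor of hepatocyte growth factor, fell on all 3 days, by 1.23 and 0.93 at day 2. Ccn5, a matricellular protein, rose by 1.35 at day 14 (0.000208) and 1.40 at day 28 (0.000129). The targets thus moved in both directions on each day.

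Of 17 genes of the calcium branch 8 fell and 4 rose at day 2, 4 fell and 1 rose at day 14, and 2 fell and 2 rose at day 28, with medians of -0.28, -0.10 and -0.11. Nfatc2, a transcription factor switched on by calcineurin, fell by 1.35 at day 2 (adjusted p = 1.88e-05). Prkca and Prkd1, protein kinases, and Plcb1, a phospholipase, fell by 0.96, 0.92 and 0.69 (1.35e-06, 8.47e-06 and 0.000148). Prkca and Prkd1 were not called at days 14 or 28.

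The remaining lists held calls in both directions, and several of their shares at days 14 and 28 were near or below those of all gene symbols. Of 22 genes of planar cell polarity and related signalling 5 fell and 3 rose at day 2, 1 fell and 1 rose at day 14 (4.55% each, against 8.74% and 12.2% of gene symbols), and 1 fell and 2 rose at day 28 (4.55% and 9.09%, against 9.57% and 11.0%), with medians of -0.13, 0.08 and 0.04. The glypicans Gpc3 and Gpc6 and the formin Daam1 fell by 0.73, 0.64 and 0.51 at day 2, and Vangl1, a core polarity protein, rose by 0.49 at day 14. Of 23 nuclear cofactors of beta-catenin 7 fell and 4 rose at day 2, and 2 fell and 3 rose on each later day (8.7% and 13.0%), with medians of 0.06, -0.02 and -0.02. Tle4, a co-repressor, fell by 0.70 at day 28 (adjusted p = 0.000867) and Pygo1, a co-activator, rose by 0.58 at day 14 (0.00281). Ruvbl1, a chromatin ATPase, rose by 0.62 at day 2, and Sox17, which is also an endothelial marker, fell by 0.69 at day 28. Of 20 genes of the destruction complex and its kinases 5 fell and 1 rose at day 2, and 3 fell and 1 rose on each later day (15.0% and 5.0%), with medians of -0.11, -0.01 and 0.01. Btrc, the ligase subunit that recognises marked beta-catenin, fell by 0.34, 0.38 and 0.43 at days 2, 14 and 28. Gprc5b, a receptor placed in the same list, fell by 1.04 at day 2 (0.000146).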

How the data were processed

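Transcripts were quantified with 16 arrays (Affymetrix Rat Gene 2.0 ST), 4 per group, each from the pooled RNA of 2 rats. The values deposited by the authors are log2 signals of probe sets. The submitters' processing notes name RMA and oligo 1.36.1, whereas the methods name GeneChip Operating Software, then subtraction of background, quantile scaling and a log2 step. They were taken as deposited. Arrays have no depth, and precision is limited by how many there are. Groups and replicate numbers were taken from the labels, and the replicate numbers of titles and descriptions differ at day 2. The labels speak of individual animals and the methods of pools, so each array was treated as 1 sample.

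A mean for each group was estimated per probe set with limma 3.58.1 (R 4.3.3, 2.86 prior degrees of freedom) over all 16 arrays. Moderated statistics from eBayes were given a Benjamini-Hochberg adjustment across the 36685 probe sets, for each of 5 comparisons, for day 28 against day 2 and for the F-test. Probe sets were named from GEO's platform annotation, and only the 18511 with exactly 1 symbol were used for genes, the brightest of them per symbol. All 54 members matched RefSeq by gene identifier. The code was tested on simulated data.

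The members, the lists and the rules were chosen with earlier results of these data known. Values on every array were printed for members that passed the F-test and differed from intact by at least 0.5 with an adjusted p under 0.05 on at least 1 day, up to 20 of the 22 eligible in order of size. Ror1 and Wnt11 were the 2 beyond that number. At least 1 member of each role was named, and per further list up to 4 genes with the largest called differences. Alternatives covered the scaling (each array centred on its median, or cyclic loess), a filter on dim probe sets, an intensity trend with a robust prior, a fit on the arrays compared alone, a Welch test and an ANOVA per probe set, the replicate number as a block, the muscle and marrow lists as covariates and each array left out in turn. Fits without the arrays richest in muscle or marrow signal were added after the data were seen. Plots were drawn in Python 3.11.15 with matplotlib 3.10.9.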

Additional observations from a re-analysis of the deposited data

Results flagged for a closer look

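Among 216 sets of 4 arrays (54 members in 4 groups), 17 held 1 array far from the other 3, and chance gives about 1 in 20, or 10.8. At day 14 replicate 3 Wnt5b was low at 7.42, Wnt7a at 5.78, Wnt10b at 5.81 and Porcn at 8.05, and Lgr4 was high at 8.75. That array had the most skeletal muscle signal of the series (11.28). At day 14 replicate 2 Wnt1 was high at 6.45 and Lef1 at 7.92, and at day 14 replicate 1 Lrp5 was high at 9.90. Intact replicate 1 was high for Wnt3a (6.00) and Axin1 (8.75) and low for Rspo3 (6.53). At day 2 Wnt8a was low at 5.45 and Tcf7 high at 8.56 on replicate 1, and Fzd5 was high at 7.32 on replicate 4. At day 28 Wnt6 was low at 6.90 and Fzd10 at 6.62 on replicate 4, and Tcf7l1 was low at 9.03 on replicate 2.

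Wnt9a, Wnt16, Porcn and Wls were called lower at day 2 and higher at day 28 against the same intact arrays. The difference of day 28 minus day 2 was 1.03 for Wnt9a, 0.91 for Wnt16, 0.58 for Porcn and 0.64 for Wls. Its sign was fixed by that choice of transcripts, so these values are a description with no test.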

How the results depend on the processing

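No member's call turned into a call in the opposite direction under any alternative, while changes of sign without a call were not counted apart. Over all alternatives pooled, 4053 comparisons of named members kept their side of the threshold, 250 calls were lost and 42 gained. The 4053 include comparisons that were uncalled in both fits. They also include 150 from taking the mean over all probe sets of a gene, which could not change members with 1 probe set. The total is thus no measure of how well the calls held. At day 2 against intact the 2 rises numbered 4 with arrays centred on their median, 0 with cyclic loess, 0 with only the arrays compared, 1 with the Welch test, 1 with the skeletal muscle covariate and 1 without the arrays richest in muscle. At day 14 the 7 rises numbered 3 (Welch) and 4 (marrow covariate), and the 12 falls 7 (arrays compared), 5 (Welch) and 7 (marrow). At day 28 the 13 rises numbered 6 (Welch) and 6 (marrow), and the 8 falls 3 and 5. From day 2 to day 14 the Welch test gave 13 rises in place of 20. From day 14 to day 28 the 2 rises numbered 0 with only the arrays compared and with the Welch test, and 1 with arrays centred on their median, the intensity trend, the skeletal muscle covariate and the arrays richest in muscle or in marrow left out. The cause of these shifts was not tested, and some of the fits also used fewer arrays.

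For the further lists, the 36 falls at day 2 numbered 23 (Welch), the 18 rises at day 14 numbered 7 (Welch) and 11 (marrow), the 19 falls 9 (arrays compared), 5 (Welch) and 8 (marrow), and the 22 rises at day 28 numbered 9 (Welch) and 6 (marrow).

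After group means were taken off, same-numbered arrays correlated over 0.1 in 7 of 24 pairs by title and 8 of 24 by description. Their median correlation was 0.002 by title and 0.031 by description, against -0.010 and -0.016 for differently numbered arrays. Pairs over 0.1 were not counted for the latter, and whether the numbers pair the samples was not tested. With a replicate block by title, 1 member rose at day 2, and 1 rose from day 14 to day 28, also by description.

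With each array left out in turn, members called numbered 1 to 2 higher and 16 to 23 lower at day 2, 4 to 7 and 8 to 12 at day 14, 9 to 14 and 5 to 9 at day 28, 17 to 20 higher from day 2 to day 14, 1 to 2 from day 14 to day 28 and 30 to 33 by the F-test. The lowest count of rises at day 14 was without day 14 replicate 4, and of falls at day 28 without day 28 replicate 4. The further lists gave 12 to 16 higher and 29 to 37 lower at day 2, 15 to 18 and 14 to 19 at day 14, and 16 to 22 and 14 to 14 at day 28. Of the calls, 15 of 24 at day 2, 12 of 19 at day 14 and 13 of 21 at day 28 held in all 16 such fits. A filter on dim probe sets left 40 members to test, and near the array median signal over background limits what could be seen.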
